A study of Drosophila melanogaster with 2 samples.

Results

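First-intron peaks on the autosomes were taken from the optimal peak list of a chromatin immunoprecipitation and sequencing (ChIP-seq) experiment on dmrt93B in Drosophila melanogaster. A peak was kept when its summit lay on an autosome, more than 500 bp from every annotated transcription start site (TSS), in no exon of any transcript, and inside the first intron of at least 1 protein-coding transcript. The rule kept 855 summits of 3301 autosomal summits and of 4159 in the whole list, and these 855 are called first-intron summits here. Within the optimal list the rule used position only. The list itself had passed a threshold on the irreproducible discovery rate, and its lowest signal was 113, so weaker peaks could not be members.

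The samples were 2 biological replicates of 1 group, whole larvae of the third instar at the wandering stage, with males and females pooled, of a transgenic line that stably expresses dmrt93B with GFP fused at its C-terminal end. No other genotype, stage or untagged line was analysed here, and every tissue of the larva contributed chromatin, so a summit cannot be assigned to a cell type. The description field of each library calls it an input control, whereas the title, the assay name and the antibody label call it a transcription factor ChIP. The libraries were grouped by the antibody label, and which label is right cannot be told apart from the peak lists. With 1 group there was no test between conditions, and peaks are not replicates of a condition, so no p-values are given; the main comparisons are set beside the values of the 2 replicate lists, whose spread covers these samples only and may be partly technical, and where none are printed a comparison rests on the optimal list alone.

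DM-domain proteins are zinc-binding transcription factors of the family that includes Doublesex, which directs sexual differentiation in flies. They bind DNA through an intertwined zinc module and a recognition helix, and insect and vertebrate members prefer similar short sites. In Drosophila the first intron is often the longest intron of a developmental gene and commonly holds enhancers. A ChIP-seq summit marks where reads pile up highest, which can be at a site bound by the protein itself or at one where the protein is held by other factors.

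Sequences at 8 of the strongest first-intron summits are shown as examples of the base composition described further on, from AT-rich windows to 2 near the first-intron average. Each is the window of 50 bp to either side of the summit, read 5′ to 3′ on the plus strand of the Release 6 genome (dm6), and capitals mark every run of 8 or more A or T bases. They come from the first introns of ush (chr2L:481007-481107), CG32486 (chr3L:3060745-3060845), CG4496 (chr2L:7188572-7188672), Lk6 (chr3R:11760991-11761091), Eip75B (chr3L:18011854-18011954) and Mhcl (chr3R:16097761-16097861), and from both summits in CG9663 (chr2L:3302153-3302253 and chr2L:3302353-3302453).
ush: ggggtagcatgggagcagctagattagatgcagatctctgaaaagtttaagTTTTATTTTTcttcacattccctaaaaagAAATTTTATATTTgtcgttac
CG32486: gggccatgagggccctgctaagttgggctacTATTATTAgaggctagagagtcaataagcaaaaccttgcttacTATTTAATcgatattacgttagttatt
CG4496: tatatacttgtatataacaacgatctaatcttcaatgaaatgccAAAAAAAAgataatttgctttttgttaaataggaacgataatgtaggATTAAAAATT
CG9663, stronger summit: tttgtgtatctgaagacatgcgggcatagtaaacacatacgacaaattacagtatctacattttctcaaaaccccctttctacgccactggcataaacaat
Lk6: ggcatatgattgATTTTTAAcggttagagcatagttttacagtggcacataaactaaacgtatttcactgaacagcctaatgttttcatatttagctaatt
Eip75B: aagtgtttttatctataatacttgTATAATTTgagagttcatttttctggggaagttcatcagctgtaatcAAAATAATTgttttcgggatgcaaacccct
CG9663, weaker summit: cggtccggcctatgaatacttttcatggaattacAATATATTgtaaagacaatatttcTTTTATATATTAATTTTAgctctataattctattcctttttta
Mhcl: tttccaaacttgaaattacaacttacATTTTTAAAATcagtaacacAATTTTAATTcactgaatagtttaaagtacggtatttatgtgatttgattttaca
The CG32486 window held 39.6% G or C. The stronger CG9663 summit held no run of 8 or more A or T bases, with 38.6% G or C. The weaker summit 200 bp away held 1 run of 8 and 1 of 18 bases. The Mhcl and CG4496 windows held only 22.8% G or C.

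First introns held a larger share of the autosomal summits than any other class except promoters. The 855 summits were 25.9% of the autosomal summits (95% Wilson interval, 24.4 to 27.4%). The share was 26.8% in replicate 1 and 23.3% in replicate 2, taking the 4159 strongest entries of each, or 25.1% ± 2.5 (SD, n = 2). Promoter summits, within 500 bp of a TSS, were 1325 in number, intergenic summits 668 and summits in later introns of protein-coding transcripts 366. The remaining autosomal summits lay in exons or in introns of other transcripts. With bases shared with a later intron counted as later introns, the first-intron share was 16.2%, below the 20.2% of intergenic summits.

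Per length of sequence, first introns lay between promoters on 1 side and intergenic sequence and later introns on the other. Counting only bases that could have held such a summit, the first introns covered 17.5 Mb and held 48.8 summits per Mb (exact Poisson interval, 45.5 to 52.1). Promoters held 87.3 per Mb, intergenic sequence 21.4 and later introns 14.9. Introns of other transcripts held 39.7 per Mb over 23 summits, with an interval of 25.2 to 59.5 that includes the first-intron value. The density in first introns was 3.27 times that in later introns, with 2.81 in replicate 1, 3.55 in replicate 2 and 3.18 ± 0.528 (SD, n = 2) over the replicates. Against intergenic sequence the ratio was 2.27, with 1.98 and 2.59 in the replicates. Both ratios thus stood above 1 by more than the spread between replicates. Of the first-intron summits, 319 (37.3%) were also in a later intron of another transcript; counting those bases and summits as later introns left 536 summits and lowered the ratio to later introns to 2.2.

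The density was highest nearest a TSS in first introns, later introns and intergenic sequence alike. First introns held 81.4 summits per Mb at 501 to 1000 bp from the nearest TSS, 58.8 at 1001 to 2000 bp, 42.8 at 2001 to 5000 bp, 43.4 at 5001 to 10000 bp, 33.4 at 10001 to 20000 bp and 19.2 beyond. The density in first introns was above that in later introns in each of these bins, and up to 20000 bp the ratio was between 1.99 and 3.14. In the replicate lists the ratio in those bins was lowest at 1.61, at 10001 to 20000 bp in replicate 1. The median first-intron summit lay 2349 bp from the nearest TSS (2315 bp ± 420, SD, n = 2), against 3440 bp for the eligible first-intron bases. The nearest TSS belonged to a host gene for 659 summits (77.1%) and to another gene for the other 196.

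**Figure D1:**
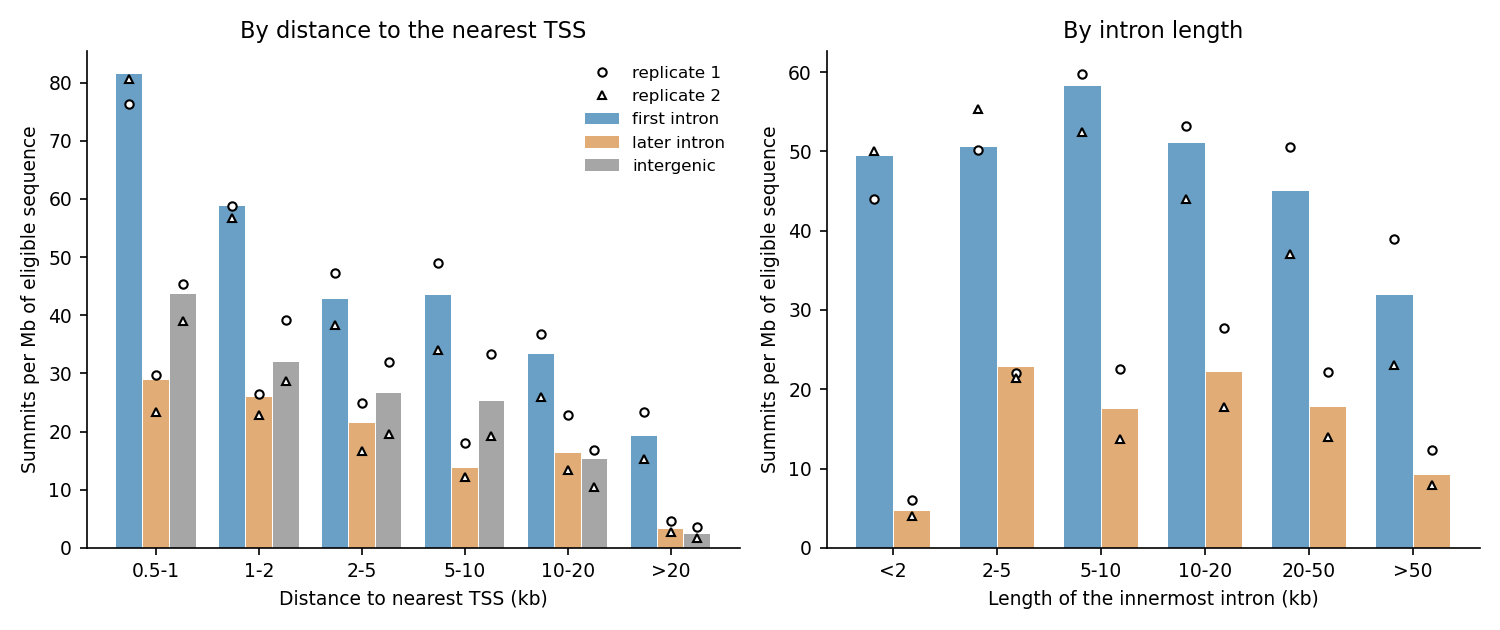
Summits per Mb of eligible autosomal sequence by distance to the nearest TSS (left, kb) and by length of the innermost intron (right, kb). Bars are the optimal list, circles and triangles the strongest 4159 entries of replicates 1 and 2; the first-intron bars stand above the later-intron bars in every bin, from 81.4 per Mb nearest the TSS to 19.2 beyond 20000 bp.

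The summits next to the limit of 500 bp had signals between 140 and 261. The 2 summits just over it lay in CG9896, 501 bp from a TSS with a signal of 261, and in spi, the gene of the EGF receptor ligand Spitz, at 502 bp with 140. The 2 just under it lay in Ctps, at 498 bp with 209, and in Exn, at 497 bp with 232. A further 270 autosomal summits lay in a first intron but within the limit and were counted as promoter summits.

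The density was lowest in the longest first introns. Where introns overlap, the shortest first intron that contains the summit was used, and its median length was 11466 bp over the summits and 13021 bp over the eligible bases. The density was 49.4 per Mb in introns up to 2000 bp, 50.6 up to 5000 bp, 58.2 up to 10000 bp, 51 up to 20000 bp, 45 up to 50000 bp and 31.9 in longer ones. The replicates differed in where it began to fall: replicate 1 held 50.6 per Mb in introns of 20000 to 50000 bp and 38.9 in longer ones, whereas replicate 2 went from 55.4 at 2000 to 5000 bp to 44 at 10000 to 20000 bp, 37.1 at 20000 to 50000 bp and 23 beyond. In later introns of the same length classes it was between 4.7 per Mb, in those up to 2000 bp, and 22.8. The ratio of first to later introns was between 2.22 and 3.47 above 2000 bp and 10.5 below, where the later introns held 21 summits.

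Within introns of at least 5000 bp, the summits leaned to the 5′ side. The 5 equal parts from the 5′ end held 68.8, 49.6, 47.1, 39.9 and 34.6 summits per Mb of eligible sequence, over 657 summits. Replicate 1 went from 70.6 in the 5′ part to 35.8 in the 3′ part, and replicate 2 from 63.5 to 26.7. Whether the intron came before or after the start codon made little difference. Introns before the start codon held 48 summits per Mb and those after it 49.8.

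The first-intron summits fell in 502 of 4831 protein-coding genes with eligible first-intron sequence, which is 10.4% of them. Replicate 1 gave 495 host genes and replicate 2 gave 469, and 376 of the 502 (74.9%) were hosts in both. The share of genes with a summit was higher the more sequence they offered, from 0.518% of genes with up to 500 bp of eligible sequence to 27.8% of those with 5000 to 10000 bp and 77.1% of those with more than 50000 bp. Hosts offered a median of 8562 bp and the other eligible genes 398 bp. Of the hosts, 324 held 1 summit, 178 held 2 or more, and those 178 held 549 summits (64.2%). Of the 855 summits, 38 lay in first introns of 2 host genes at the same time and are counted under both.

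Hosts also had promoter summits more often than other eligible genes. A summit lay within 500 bp of one of the gene's own TSSs in 181 hosts (36.1%) and in 637 of the 4329 other eligible genes (14.7%). The shares were 31.9% and 11.5% in replicate 1 and 36.2% and 18.8% in replicate 2. In the 8 classes of eligible length the share among hosts was between 16.7 and 48.1%, and among other genes between 6.98 and 25%, with the hosts' share the higher in each class. The difference was smallest in genes with up to 500 bp, at 16.7% of 12 hosts and 13.5% of 2305 others.

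The most summits in 1 gene were 14. sbb, which encodes the transcriptional corepressor Scribbler (also called Brakeless), held these 14, spread over 49684 bp, with signals from 121 to 693 and a median of 343; it held 16 in replicate 1 and 12 in replicate 2. Eip75B, an ecdysone-induced nuclear receptor, held 11 with signals from 117 to 1636, and 10 and 9 in the replicates. tara, a trithorax-group regulator, held 9 over 21652 bp with signals from 116 to 1075. shn, a zinc-finger partner of the BMP effector Mad, held 9 with signals up to 728, and Snoo, a Ski and Sno family protein that acts with Smad factors, held 9 with signals up to 452. tkv, a type I BMP receptor, held 8, and jing, a zinc-finger chromatin factor, held 8 over 77635 bp. Antp, the Hox gene of the thorax, held 7, and these same 7 lie in first introns of the overlapping gene CG46458. brat, a translational repressor of the TRIM-NHL family, held 7, the densest of the group at 436 per Mb of its eligible sequence. Together these 10 genes, chosen for their number of summits, held 82 of the 855.

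The signals within a host differed widely. In sbb, 8 of the 14 summits lay between 12761 and 26727 bp downstream of the first annotated TSS, and 5 of these, at 12761, 18808, 20106, 22037 and 23918 bp, had signals above 500. The strongest sbb summit, with a signal of 693, lay 49702 bp downstream. In Eip75B, 1 summit at 52792 bp had a signal of 1636, while the next strongest first-intron summit had 312. All 14 summits in sbb and 10 of the 11 in Eip75B lay in a later intron of another transcript as well. Some of the summits came in pairs about 200 bp apart, as at 14578 and 14779 bp in sbb. There were 98 first-intron summits within 300 bp of another one, and merging each such group into its strongest summit left 806 in all, 13 of them in sbb, 10 in Eip75B, 8 in tara and 5 in Antp.

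**Figure D2:**
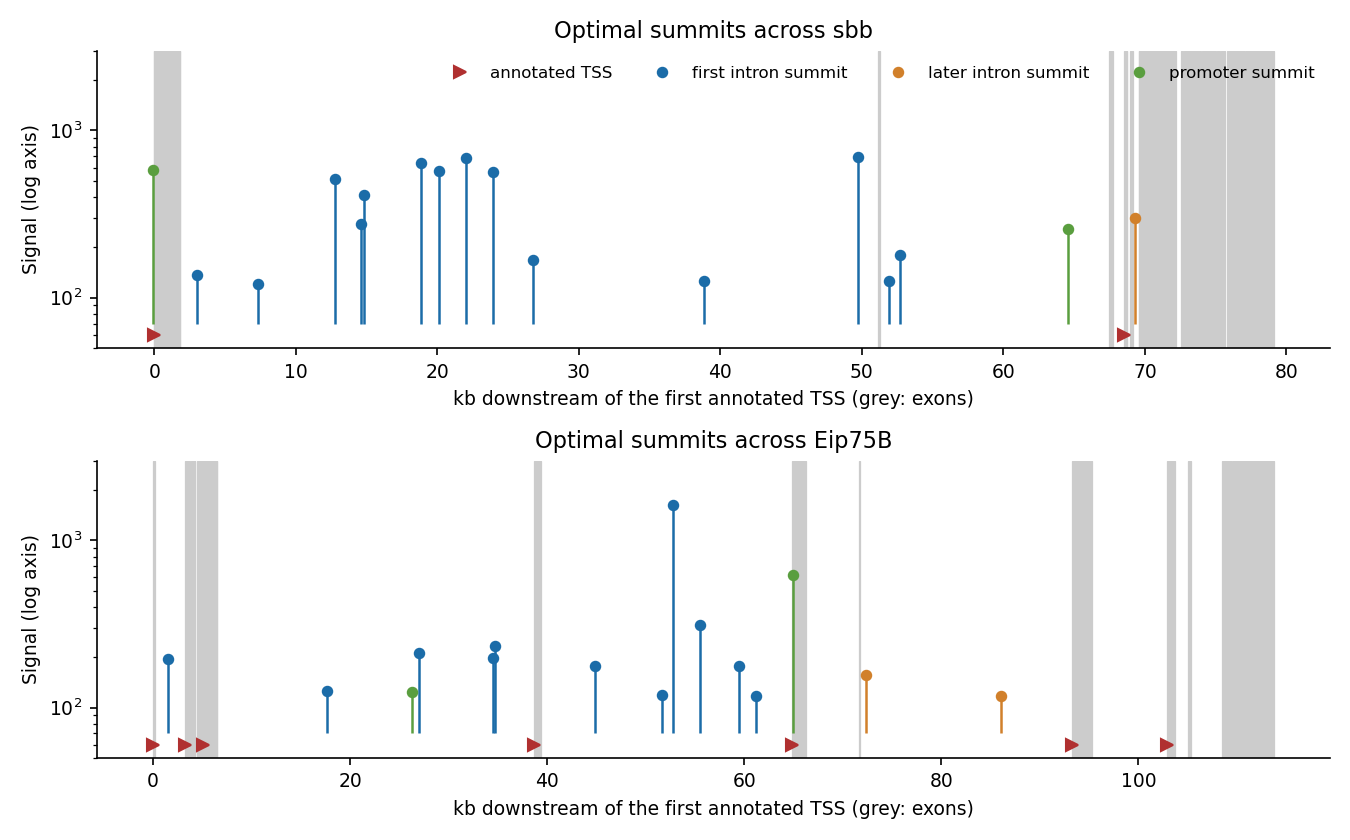
Position (kb downstream of the first annotated TSS) and signal (log axis) of each optimal summit across sbb and Eip75B; grey bands are exons, red arrowheads the genes' own TSSs, and promoter summits (green) lie near a TSS of these or of other genes. The sbb signals stay between 121 and 693, whereas 1 Eip75B first-intron summit at 1636 stands above the others.

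First-intron summits lay near each other about as often as later-intron summits and more often than promoter summits. Of the 855, 277 (32.4%) lay within 2000 bp of another first-intron summit, forming 123 runs of up to 5 summits. The share was 32.5% for later-intron summits, 38.9% for intergenic ones and 20.6% for promoter summits, each counted within its own class. After merging the pairs within 300 bp, 23.3% of the first-intron summits lay within 2000 bp of another. No merged share is given for the other classes. The classes differed in summits per Mb, at 48.8 in first introns and 14.9 in later introns, and the shares were not adjusted for this.

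In strength, first-intron summits resembled other summits away from promoters. The signal is the peak strength that the authors' caller wrote, and values are compared within 1 list only. Its median over first-intron summits was 198, with quartiles of 142 and 323. The median was 189 for later introns, 198 for intergenic sequence and 249 for promoters. The ratio to later introns was 1.05 in the optimal list, 1.13 in replicate 1 and 1.01 in replicate 2, or 1.07 ± 0.0846 (SD, n = 2). First introns made up 20.3% of the 826 strongest autosomal summits and 29.7% of the 825 weakest, while the promoter share went from 55.7% to 31%. The median signal was 207 at 501 to 1000 bp from a TSS and 171 at 10001 to 20000 bp.

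A few first-intron summits were among the strongest of the whole list. The strongest, with a signal of 3137, lay at position 481057 of arm 2L in the first intron of ush, a zinc-finger cofactor of GATA factors, and ranked 3 in the optimal list and in each replicate. Ranks in a replicate are those of its nearest entry within 200 bp, whatever the class of that entry. Its intron is 13185 bp long, and the nearest TSS, 1369 bp away, is that of the neighbouring gene cbt. The summit in CG32486 had a signal of 2204 and ranked 15 in replicate 1 and 11 in replicate 2. The summit in Adf1, a transcription factor with a MADF domain, had 2202 and ranked 5 and 24. These 3 summits were thus high in both replicates.

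The next strongest summits had signals between 1442 and 2098, and 2 of them lay in CG9663. A summit with a signal of 2052, in the overlapping first introns of HmgZ and HmgD, which encode HMG-box chromosomal proteins, ranked 13 and 28. CG4496 had a summit at 2098, and CG9663 had summits at 1903 and 1442 in an intron of 1292 bp. The summit in Lk6, a kinase of the translation factor eIF4E, had 1819, and that in Eip75B had 1636, at ranks 48 and 35. The summit in Eip78C, another ecdysone-induced nuclear receptor, had 1097, 4128 bp from the nearest TSS, which is that of CG43218.

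Of the 855 summits, 20 had a signal above 1000 and 87 above 500, while 431 were under 200. Besides those above, the 20 strongest lay in CG12769 (1525), in Mhcl, a myosin heavy chain-like gene (1217), and in chif, the fly relative of the replication factor Dbf4 (1198). The others lay in tna, a trithorax-group gene (1104), tara (1075), for, the cGMP-dependent protein kinase gene (1040), fru, the BTB zinc-finger gene of male courtship (1018), vri, a bZIP repressor of the circadian clock (1014), crb, an apical polarity gene (1005), and simj, a subunit of the NuRD complex (1003). Of these, fru stood furthest apart between the replicates, at rank 95 in replicate 1 and 236 in replicate 2. The summits farthest from any TSS lay in Snoo, at 41883 and 34894 bp, and in CG42747, at 40006 bp.

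Among 34 gene lists, the EGF receptor, ecdysone and BMP lists had the highest shares of genes with a first-intron summit. Most of the other lists also stood above the 10.4% of all eligible genes. Since long introns have more summits, each share is set beside that of all eligible genes in the same classes of eligible length. The lists were chosen with earlier results of these data known, so they are not independent of the peaks. In the EGF receptor and MAPK list, 12 of 17 eligible genes (70.6%) were hosts, against 27.6% for their length classes, with 11 hosts in each replicate. Among the 2079 strongest entries of the optimal list the share was 41.2%, and that of all eligible genes was 5.96%. The share of the length classes was not computed for those entries. The hosts were the receptor gene Egfr, the ligand genes spi and vn, the ligand-processing genes S and ru, the adaptor gene drk, the feedback inhibitors aos and sty, the phosphatase gene Mkp3, and the nuclear factors aop, cic and edl. The strongest of these summits lay in edl (645), an ETS-family modulator, in aop (510), the ETS repressor Yan, and in cic (398), the HMG-box repressor Capicua.

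In the ecdysone list 10 of 15 eligible genes (66.7%) were hosts, against 34.7%, with 8 hosts in replicate 1 and 11 in replicate 2. They were EcR, the hormone's receptor, its coactivator gene tai, the early genes Eip74EF (strongest summit 707), Eip75B and Eip78C, and Hr3, Hr38, Blimp-1, Eip63E and ImpL2. With bases shared with a later intron left out, the share was 41.7%, and that of all eligible genes was 8.57%. No share of the length classes was computed for that setting. In the BMP list 7 of 11 (63.6%) were hosts, against 27.7%, with 8 and 7 in the replicates. They were the ligand gene dpp, the receptor genes tkv, put and wit (906), the effector gene Mad, and shn and sbb. In the Wnt and Hedgehog list 8 of 18 (44.4%) were hosts, against 28.7%, among them fz (541), nkd (514) and dlp (406). Of cytoskeleton regulators 11 of 25 (44%) were hosts, against 22.6%, with the formin gene capu (401) the strongest. Lists outside signalling and hormone response were also above their length classes. Among them were circadian genes (42.9% against 20.5%), chromatin remodelling and architecture (33.3% against 13.5%), immune genes (31.2% against 15.3%) and the Polycomb and Trithorax group (23.5% against 10.4%). The Hippo list (30.8% against 15.7%) and the insulin and TOR list (26.7% against 12.5%) were above theirs too.

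Several other lists were near or below the level of their length classes. The RNA-binding list had 8 hosts of 24 (33.3%), against 33.4%, and the Hox genes 3 of 8 (37.5%), against 33.4%. The immunoglobulin and cell adhesion list had 6 of 29 (20.7%), against 30.9%, and imaginal disc patterning factors 6 of 29 (20.7%), against 25.3%. Ion channel and synaptic genes had 4 of 26 (15.4%), against 19.1%, and muscle structural genes 2 of 21 (9.52%), against 14.9%. Glycolysis enzymes, ribosomal proteins, oxidative phosphorylation genes, cuticle proteins and the odd-skipped family, with 3 to 9 eligible genes each, had none; the shares of their length classes were 0.518 to 4.01%. In all, 19 lists were above the share of their length classes and 15 below. No test was made of any list.

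**Figure D3:**
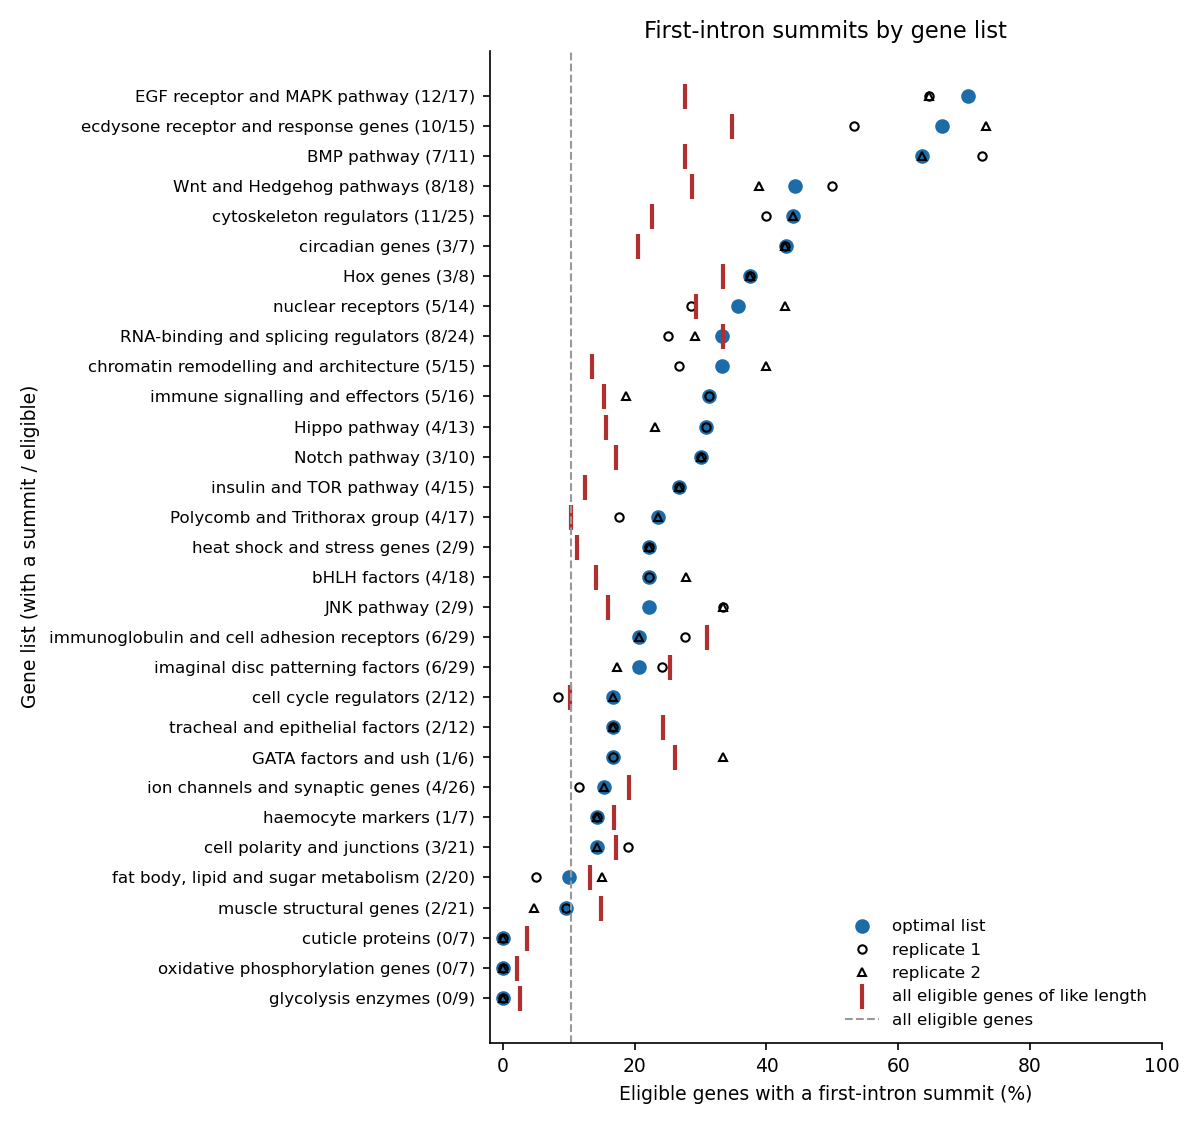
Percent of eligible genes with a first-intron summit in each list with at least 5 eligible genes, in the optimal list (filled circles) and in replicates 1 and 2 (open circles and triangles). Red ticks give the share of all eligible genes in the same length classes and the dashed line that of all eligible genes, 10.4%. The EGF receptor, ecdysone and BMP lists stand at 63.6 to 70.6%, above their ticks in both replicates. The lists were chosen with earlier results of these data known.

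Hosts in other lists had from 1 to several summits. The Hsp83 summit had a signal of 482, and the strongest of 4 summits in trx, the gene that names the trithorax group, had 774. Of the clock genes, vri, dco (338) and Pdp1 (282 at the strongest of 4) were hosts. grh, which encodes the epidermal factor Grainyhead, held 1 summit at 675, and neur, a ubiquitin ligase of the Notch pathway, 1 at 703. Of the DM-domain genes, dsx held 1 first-intron summit at 177, which lay 606 bp from a TSS of dsx itself. Its counterpart in replicate 2 ranked 3917, while the nearest entry in replicate 1, at rank 1210, was not a first-intron summit by the rule.

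The DNA under first-intron summits was AT-rich. The mean GC content within 50 bp of the summit was 32.5%, and that of equal windows centred 500 bp to either side was 42.7%, a difference of -10.3 percentage points (-10.4 in replicate 1, -9.14 in replicate 2, -9.78 ± 0.899, SD, n = 2). The summit was lower than its flanks in 721 of the 855 (84.3%). All windows of eligible first-intron sequence averaged 40.1%. The stronger summits had the lower GC content, at 29.7% in the 214 strongest first-intron summits and 34.2% in the 214 weakest. The difference from the flanks was of like size at later introns, -10.4 points, at intergenic summits, -11.7, and at promoter summits, -12.2.

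The number of summits per stretch of first intron depended on its GC content. There were 15.7 summits per 1000 windows below 25% GC, 11.1 at 25 to 30%, 8.96 at 30 to 35% and 4.24 at 35 to 40%. The values were 2.32 at 40 to 45%, 1.39 at 45 to 50% and 1.59 from 50% upward. Later introns had nearly the same mean GC content, 39.8%, yet held fewer summits at every level of GC. The ratio of first to later introns ranged from 2.37 to 5.63 over the 7 GC classes, and in the replicates from 2.14 to 4.77. The 5.63 was for windows from 50% GC upward, which held 39 first-intron and 9 later-intron summits. How fragmentation, sequencing or mapping of AT-rich DNA bears on these values was not tested.

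**Figure D4:**
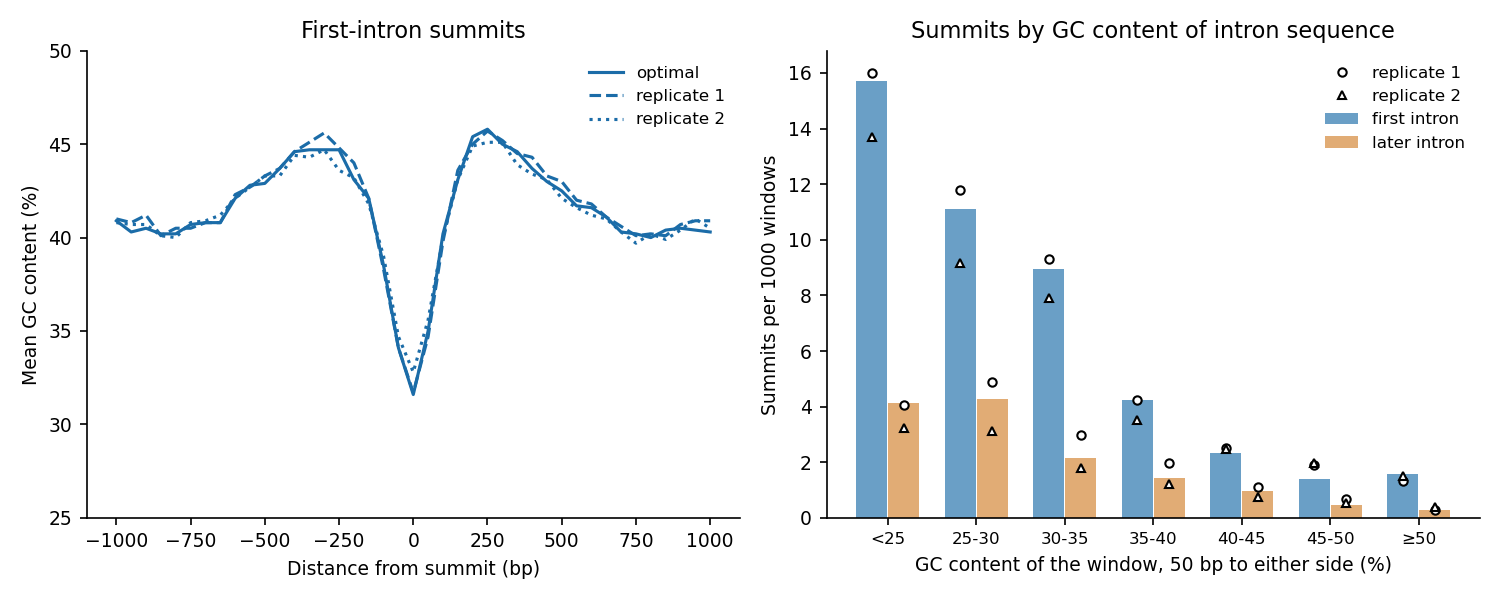
Left, mean GC content (%) of windows of 25 bp to either side, by distance (bp) from first-intron summits in the optimal and replicate lists, with a dip to 31.6% at the summit between shoulders above 44%. Right, summits per 1000 windows of 50 bp to either side by GC content in first and later introns (bars, optimal list, and symbols, replicates). First introns held 15.7 below 25% GC, 1.39 at 45 to 50% and 1.59 from 50% upward.

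Short AT words were more common at the summits than in first introns at large. Motifs were searched on both strands of these windows, and an overlap between motifs was allowed. TTAAAA was present at 33.3% of the summits, against 18.4% of all eligible windows and 13.5% of flanks, with 32.3% and 30.4% in the replicates. AAATTT was present at 16.7% against 11% of windows, ATATAT at 13.3% against 7.63%, AAAAAA at 25.3% against 20.7%, and TAATTA, a core recognised by many homeodomains, at 11.3% against 8.09%. Runs of at least 20 A or T bases were present at 5.03% of summits and 2.34% of windows. Such words were not particular to first introns. TTAAAA was present at 32.5% of later-intron, 33.8% of intergenic and 38.5% of promoter summits, and TAATTA at 8.47%, 11.5% and 11.7% of these. Some other words were less common at the first-intron summits. The repeat CACACAC was present at 1.29% against 3.93% of windows, GGGCGG at 1.17% against 3.22%, TGGGAA at 4.09% against 6.92%, CAGCTG at 2.22% against 3.85% and CACGTG at 0.234% against 1.17%. The windows compared here and below were not matched for GC content. How far these differences go beyond base composition was not tested.

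Sites like those of DM-domain proteins were rare. Either of 2 forms, ACAATGT or ACATTGT as the first and TGTATCA as the second, was present at 32 summits (3.74%, Wilson interval 2.66 to 5.24%), against 2.41% of eligible windows. The same letters read backwards without complement, TGTAACA or TGTTACA and ACTATGT, were present at 27 summits (3.16%), against 1.74%. The 2 forms differed. The first was present at 2.69% of summits (Wilson interval 1.8 to 4%) against 1.65% of windows, and backwards at 1.29% against 1%. The second was present at 1.05% against 0.78%, and backwards at 1.87% against 0.748%. In the replicates the first form was present at 2.23% and 2.47%, and the second at 1.11% and 0.39%. The median signal was 165 at the 32 summits, against 198 over all first-intron summits.

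Of the other motifs, TATCGATA, the DNA replication-related element of many housekeeping promoters, was present at 1 first-intron summit (0.117%) and at 2.26% of promoter summits. GTAAACA, a forkhead core, was present at 4.09% of first-intron summits against 2.41% of windows, and GAANNTTC at 4.68% against 3.07%. TTCNNNGAA was present at 4.68% against 3.19%, GATAAG at 5.26% against 4.85%, TGANTCA at 2.22% against 2.54% and GAGAGAG at 1.17% against 1.39%.

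Most first-intron summits were found in both replicates. The optimal list was made from both replicates with a threshold on the irreproducible discovery rate. Part of this agreement was therefore set by how the list was made. Among the 4159 strongest entries of each replicate list, 590 of the 855 (69.0%; Wilson interval, 65.8 to 72.0%) had a summit within 200 bp in both, 156 in replicate 1 alone, 90 in replicate 2 alone and 19 in neither. The share in both was 67.5% for later introns, 71.3% for intergenic sequence and 65.6% for promoters. In the full lists of 30000 entries, 72 of the 855 (8.42%) had no entry in replicate 1 and 4 had none in replicate 2. For promoter summits those without an entry in replicate 1 were 21.7%. Over the 780 first-intron summits in both full lists the signals had a Spearman rho of 0.759, given as a description, since neighbouring summits share reads and 1 entry can be nearest to 2 summits.

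**Figure D5:**
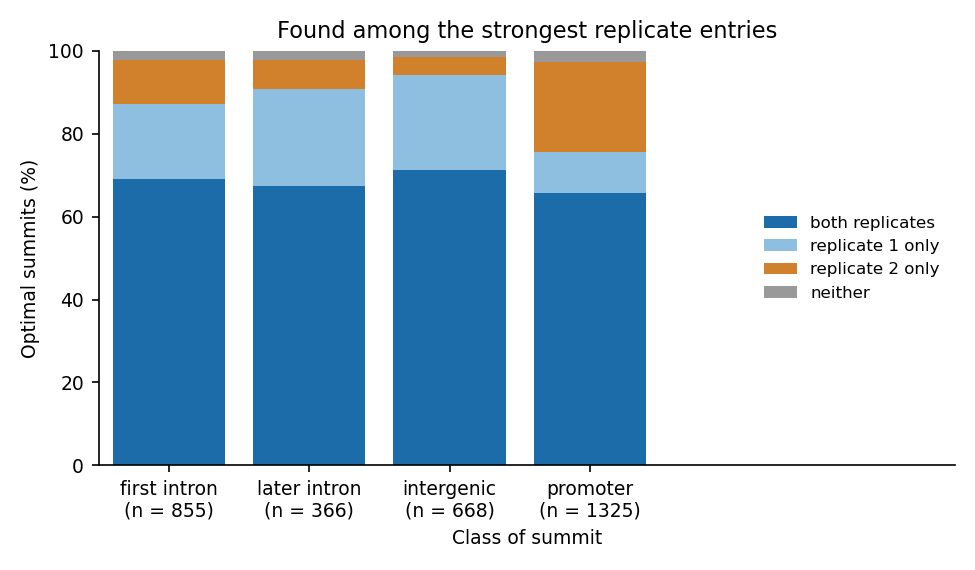
Percent of optimal autosomal summits of each class with a summit within 200 bp among the 4159 strongest entries of both replicates, of 1 of them or of neither. First-intron summits were found in both in 69.0%, in replicate 1 alone in 156 of 855 and in replicate 2 alone in 90 of 855.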

How the data were processed

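The authors deposited, per the labels' protocols and file headers, 1 relaxed peak list per replicate and 1 for the pooled replicates, with 30000 entries each, and 1 optimal list past a threshold on the irreproducible discovery rate (IDR), all in dm6 coordinates. The unit used is the signal of each peak in the deposited lists, a strength written by the authors' caller. Not given in the sources used here were the aligner, the peak caller and the IDR cut-off; as depth is unknown, intervals cover counting error only. Input or control reads were not used here.

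The summit is the start of a peak plus its summit offset. Summits were placed on the Ensembl annotation, release 115, without its transposable elements, and on the NCBI Release 6 sequence. Each base was assigned to 1 class in the order promoter, exon, first intron, later intron, other intron, intergenic, and densities use the bases of the class. Eligible genes have at least 1 base of the first-intron class. Replicate values come from the 4159 strongest entries of each replicate list. Gene lists matched 756 of 790 entries by symbol.

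Members, gene lists and motifs were chosen with earlier results of these data known. Genes were named by rule: the 20 strongest summits found in both full replicate lists, the 10 hosts with most summits (ties by signal, which left out E2f1, also with 7), up to 3 hosts per list by strongest summit, the 3 summits farthest from a TSS, and 2 on either side of the 500 bp limit. The remaining hosts of the EGF receptor, ecdysone and BMP lists are named to complete those lists. Alternatives changed the replicate list, the TSS limit, the strength, the strictness, the window and the matching distance. The classification was checked at 600 random genome positions on the large autosomal arms, and all had the class found by direct search of the annotation. Python 3.11.15, numpy 2.4.6, pandas 2.3.3, scipy 1.17.1 and matplotlib 3.10.9 were used.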

Additional observations from a re-analysis of the deposited data

How the results depend on the processing

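Of 125 values under alternatives, 106 stayed within limits and 19 moved. The limit was 1 SD of the replicates, 1.5 times for counts and gene shares, and the Wilson interval for the share found in both replicates. Both density ratios stayed above 1 and the GC difference stayed negative wherever computed. The shares of the gene lists were not set against their length classes under the alternatives. Putting the list of 1 replicate in place of the optimal list gave a first-intron share of 23.3 to 26.8% and 770 to 897 summits. The ratios were 2.81 to 3.55 and 1.98 to 2.59, and the GC difference was -10.4 to -9.14 points. These single-replicate values are counted among the 125, yet the SD was computed from the same values. They are therefore no independent check of stability, and the optimal list was not remade without a replicate. A TSS limit of 250 bp gave a share of 29.5% and a median distance of 1836 bp, and 1000 bp gave 20% and 3506 bp. The 2079 strongest entries gave 386 summits, a GC difference of -12.3, 93.5% in both replicates, 5.96% of eligible genes and 41.2% of the EGF receptor list. Counting bases in any later intron as later gave 536 summits, a share of 16.2%, a ratio of 2.2, 8.57% of eligible genes and 41.7% of the ecdysone list. That share of 16.2% was below the 20.2% of intergenic summits. The GC difference was -8.05 with windows of 100 bp to either side and -8.26 with flanks 1000 bp away. The share in both replicates was 63.3% within 100 bp and 75.6% over entries in both full lists. Alternatives chosen after seeing the data, which counted transposable elements as transcripts, merged summits within 300 bp or left out soft-masked bases, moved no value beyond these limits. The number of replicates and the unknown depth limit all values. No paired analysis was possible because there is 1 group.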

Other observations

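The first-intron summits were spread evenly over the large arms, with 47.7 per Mb of eligible sequence on 2L, 51.1 on 2R, 52.2 on 3L and 46 on 3R. Chromosome 4, the small heterochromatic autosome, held 1 first-intron summit in 0.14 Mb.

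Among weaker peaks, first introns stood out less from later introns and intergenic sequence. In the pooled list, the 4159 entries that follow the optimal ones in strength had a density in first introns 2.53 times that in later introns and 1.94 times that in intergenic sequence. Over all remaining pooled entries the ratios were 1.47 and 1.29, against 3.27 and 2.27 in the optimal list. Compared with promoters the change went the other way. First introns and promoters held 48.8 and 87.3 per Mb in the optimal list, 53.9 and 54.6 in the next 4159 entries, and 231 and 171 in the rest. The first-intron share of autosomal entries was 25.9%, 28.5% and 22.3% in turn. The pooled list has no replicate values of its own.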
